A study of Mus musculus with 8 samples.

Results

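The regions described here are places on the mouse genome where chromatin immunoprecipitation followed by sequencing (ChIP-seq) of Nuclear Factor I proteins gave peaks in CD1 libraries and none in libraries of a mixed background. The 6 peak lists were merged into regions wherever peaks shared 1 bp or more. A region was kept when it held a peak of at least 2 of the 3 CD1 libraries and of none of the 3 Mixed libraries. This left 723 of 46070 merged regions, or 1.57% of all regions. The same rule with the backgrounds exchanged, used below as the mirror set, gave 2277 Mixed-only regions, or 4.94%. The regions were chosen by the peak calls of all 6 lists, so their presence in CD1 and absence from Mixed is a description of these lists and was not tested. A region without a Mixed peak may still hold Mixed fragments below the peak threshold, and those were not analysed here.

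The NFI family of transcription factors (NFIA, NFIB, NFIC and NFIX) binds DNA as dimers, at a palindrome of 2 short arms, and shares a conserved DNA-binding domain. In the developing cerebellum these factors take part in the step from dividing granule neuron progenitors to migrating, axon-bearing granule neurons. They bind at promoters and at distal elements, so a peak need not belong to the nearest gene.

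All libraries were made from granule neuron progenitors of the cerebellum at postnatal day 7. These are the dividing cells of the outer cerebellar layer, and they were obtained by papain dissociation. For each of NfiA, NfiB and NfiX there was 1 library from the CD1 strain, an outbred stock, and 1, called Mixed here, from mice whose background is mixed and labelled as resembling CD1. The labels give no genotype, sex or number of pooled animals. The NfiA antibody was from Abcam and the NfiX antibody from Sigma Aldrich. For NfiB the sample labels and the design text name different suppliers, which is not settled here. Another 2 libraries, 1 input for each background, were not analysed here. With 1 library per factor and background, and nothing that says they came from separate animals, any p-value below measures only the spread between these libraries, which may be technical.

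Most of the CD1-only regions lie in introns or between genes, where no sequence was used here. A 101 bp window at the summit could be read for 26 of the 723 regions, from GENCODE transcripts or RefSeq promoters of GRCm38, the build of the peak lists. The windows below are reference sequence, not the alleles of these mice, and are written along the forward strand. Capitals mark matches on either strand to the NFI palindrome (TTGGC and GCCAA set 5 bases apart), the single NFI element TTGGCA, or the E-boxes CAGCTG and CAGATG, elements bound by neural bHLH factors. An NFI element can lie within a palindrome. The first pair shows the palindrome in a noncoding exon of Gm37675 (chr3:51874402-51874502) and in a UTR of Rab43, a small GTPase gene, where only the site is given (chr6:87789371-87789400). At Rab43 the capitals begin with an E-box CAGCTG, which directly adjoins the palindrome.
Gm37675: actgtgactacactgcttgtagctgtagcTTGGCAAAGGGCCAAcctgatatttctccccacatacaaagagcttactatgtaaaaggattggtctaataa
Rab43 site: ggCAGCTGTTGGCAGGCAGCCAAgcctgcc

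The next windows show a single NFI element beside an E-box, in a noncoding exon of Gm29500 (chr1:163607887-163607987), and E-boxes alone, in a coding exon of the kinase gene Dstyk (chr1:132434131-132434231) and in an exon of A330033J07Rik, a gene that is not protein-coding (chr13:48046355-48046455).
Gm29500: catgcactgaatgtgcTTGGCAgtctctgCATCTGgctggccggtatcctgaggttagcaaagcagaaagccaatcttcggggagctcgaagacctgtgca
Dstyk: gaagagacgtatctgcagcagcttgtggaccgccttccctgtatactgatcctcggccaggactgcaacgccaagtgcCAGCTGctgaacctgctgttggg
A330033J07Rik: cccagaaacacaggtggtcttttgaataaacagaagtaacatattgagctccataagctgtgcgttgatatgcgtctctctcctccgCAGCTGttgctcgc

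The last pair comes from promoters, upstream of the RefSeq starts of Mkrn3, an imprinted makorin gene (chr7:62420154-62420235), and Krt73, a keratin gene (chr15:101802510-101802610). Neither stretch held a match.
Mkrn3: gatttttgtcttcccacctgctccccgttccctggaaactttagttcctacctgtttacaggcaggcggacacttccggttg
Krt73: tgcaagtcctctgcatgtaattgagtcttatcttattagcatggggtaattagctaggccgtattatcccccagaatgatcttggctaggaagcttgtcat

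The region at Gm37675 (nearest protein-coding gene Maml3, a Notch coactivator gene, 77.9 kb away) had folds of 4.14 in NfiB CD1 and 6.98 in NfiX CD1. The fold is the authors' ratio of fragments at the summit over the local background. The Rab43 region had folds of 6.01 in NfiA CD1 and 3.64 in NfiB CD1, and its nearest start is that of Gp9. The Gm29500 region had folds of 4.86 in NfiA CD1 and 5.50 in NfiB CD1 and lay 117 kb from the start of Mettl11b. The Dstyk region reached 3.69 in NfiA CD1 and 7.52 in NfiB CD1, and a Mixed peak lay 0.343 kb from it. The A330033J07Rik region, with Id4, an inhibitor of bHLH factors, as nearest protein-coding gene at 215 kb, reached 8.29 in NfiB CD1 and 5.79 in NfiX CD1.

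Over the 26 readable CD1-only windows the palindrome was found in 2 (7.69%, 95% Wilson interval 2.14 to 24.1). It was found in 1.299% of 154 Mixed-only windows (0.357 to 4.61) and in 2.60% of 923 windows of regions with at least 2 CD1 libraries and a Mixed peak (1.75 to 3.84). The single element TTGGCA was in 10 CD1-only windows (38.5%, 22.4 to 57.5), against 31.2% and 29.04% in the other sets. CAGCTG was in 8 CD1-only windows (30.8%, 16.5 to 49.99), 8.44% of Mixed-only windows (5.0 to 13.9) and 21.2% of shared windows (18.7 to 24.0). CAGATG was in 6 (23.1%), against 23.4% and 21.2%. As a control, the palindrome arms set 8 bases apart were in 0 of the 26, which allows up to 11.5%. The CD1-only intervals for TTGGCA and CAGATG span the shares of both other sets. For the palindrome and for CAGCTG the interval spans the shared value and lies above the Mixed-only share, and the palindrome intervals of the CD1-only and Mixed-only windows overlap. Among 32851 windows of the same length that end at a RefSeq start, 0.0183% held the palindrome, 4.67% TTGGCA, 5.89% CAGCTG, 5.71% CAGATG and 0.00913% the control. The RefSeq windows are all promoter sequence, whereas most readable CD1-only windows lie in exons away from promoters, so these shares are not like for like. The Wilson intervals cover counting error only, and the readable windows are 3.60% of the CD1-only regions.

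Most CD1-only regions were held by the NfiA and NfiB lists together. NfiA CD1 with NfiB CD1 accounted for 612 regions, NfiB CD1 with NfiX CD1 for 40, NfiA CD1 with NfiX CD1 for 7, and 64 had a peak of all 3 CD1 libraries. Of these 64, 31 were intergenic, 28 were in introns of protein-coding genes, 4 in introns of other genes and 1 was a promoter. The NfiX CD1 list, the shortest, thus touched few of the regions. Of the 16314 regions with at least 2 CD1 libraries, 723 had no Mixed peak, or 4.43%. The mirror share, regions with at least 2 Mixed libraries and no CD1 peak, was 9.61%. When split by libraries, no Mixed peak was found for 6.63% of NfiA with NfiB regions (6.14 to 7.15), 7.29% of NfiA with NfiX regions (3.58 to 14.3), 8.30% of NfiB with NfiX regions (6.15 to 11.1) and 0.984% of regions in all 3 CD1 libraries (0.771 to 1.25). Regions held by all 3 factors were thus rarely CD1-only. In the mirror the shares in the same order were 15.8%, 34.4%, 25.8% and 4.16%.

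The lists differed in length and depth, which bears on every count of regions seen in 1 background. They held 7497 to 36431 peaks. Read totals were not used here, so the number of fragments at each summit and the local background were recovered from the deposited fold and p-value. The lowest local background in a list, used as an index of depth, was 0.856 to 1.35 fragments in CD1 and 0.960 to 1.39 in Mixed, lower in CD1 for 3 of 3 factors. Its mean was 1.05 ± 0.26 in CD1 and 1.22 ± 0.23 in Mixed (SD, n = 3 libraries each), a difference of −0.17 (exact two-sided permutation p = 0.4; exact sign-flip permutation within factors p = 0.25). Mean list length was 20307 ± 14749 peaks in CD1 and 26089 ± 6318 in Mixed (SD, n = 3; exact two-sided permutation p = 0.5). The smallest p-values that 3 against 3 libraries allow are 0.1 and, within factors, 0.25, so neither difference could have passed. The part of depth in the counts of CD1-only regions was not tested beyond the equal list lengths given at the end.

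The strongest CD1-only region lay in an intron of Adgrl3, which encodes latrophilin 3, a synaptic adhesion receptor (chr5:81085051-81085708, 63.8 kb downstream of the nearest start). Its folds were 20.1 in NfiA CD1, 20.1 in NfiB CD1 and 19.4 in NfiX CD1, from 38, 48 and 35 fragments. The 3 factors thus gave nearly the same enrichment, at percentiles of 99.4, 98.4 and 99.1 of their lists, and the closest Mixed peak was 42.0 kb away. The Adgrl3 gene body held 18 merged regions, of which 3 had a peak of all 6 libraries, 2 were Mixed-only and this region was CD1-only. The second region was intergenic, 211 kb upstream of Erbb4, a neuregulin receptor gene (chr1:69319213-69319780). It had folds of 17.5, 17.5 and 16.3 in NfiA, NfiB and NfiX CD1, from 43, 54 and 39 fragments, with the closest Mixed peak 67.4 kb away. Both regions were again similar across the 3 CD1 libraries and far from any Mixed peak.

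Other regions near the top were less even. The third lay 171 kb upstream of Lrrc3b, with folds of 14.1 in NfiA CD1 and 14.3 in NfiB CD1 and no NfiX CD1 peak (chr14:15610270-15610636). A Mixed peak lay 5.99 kb away. A region in an intron of Nrxn3, the gene of the presynaptic adhesion molecule neurexin 3 (chr12:90118323-90118765), had folds of 8.97 in NfiA CD1 and 16.4 in NfiB CD1, from 17 and 39 fragments. Here the NfiB value was higher, and a Mixed peak lay 4.34 kb away. The region at Acot10 had folds of 9.82, 16.5 and 11.2 in NfiA, NfiB and NfiX CD1, but it lay 635 kb from that gene's start, so the name is only a landmark (chr15:20031590-20032026). The same holds for Mut, also 635 kb away, with folds of 8.97 in NfiA CD1 and 16.2 in NfiB CD1, and for a region 1319 kb from Cdh11, with folds of 11.9 and 10.7.

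The region in the intron of Nps, the neuropeptide S precursor gene, lay 2.51 kb from its start (chr7:135270930-135271421). Its folds were 10.8, 10.6 and 10.97 in NfiA, NfiB and NfiX CD1, from 35, 55 and 33 fragments, and the closest Mixed peak was 19.5 kb away. The 3 libraries were again close to each other. The last members of this group were 133 kb from Ces5a and 294 kb from Sphkap, in introns of genes that are not protein-coding. Their folds were 9.21 and 9.44 in NfiA CD1 and 13.0 and 10.6 in NfiB CD1.

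Among other regions with a peak of all 3 CD1 libraries, the one 40.1 kb downstream of Helt, a bHLH factor gene of developing midbrain neurons, stood out for NfiX (chr8:46253672-46254021). Its fold was 23.2 in NfiX CD1, 9.38 in NfiB CD1 and 7.73 in NfiA CD1, from 42, 21 and 14 fragments. This was the highest fold of any CD1-only region in any library. An intronic region of Cadps2, a gene for a vesicle priming protein, had folds of 8.63, 13.5 and 7.15 in NfiA, NfiB and NfiX CD1, with the closest Mixed peak 114 kb away (chr6:23522544-23522951). Introns of Prkab1, an AMP-activated kinase subunit gene, and Lrch1 held regions with folds of 8.23 and 8.18 in NfiA CD1, 10.4 and 13.1 in NfiB CD1, and 9.84 and 8.17 in NfiX CD1. The regions named by Aga and 1500015O10Rik lay 1271 and 45.6 kb from those starts, so Aga is only a landmark. Their NfiA CD1 folds were 8.76 and 11.9, the NfiB CD1 folds 15.4 and 7.67, and the NfiX CD1 folds 8.08 and 11.3. The order of the 3 libraries thus differed from region to region.

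**Figure D1:**
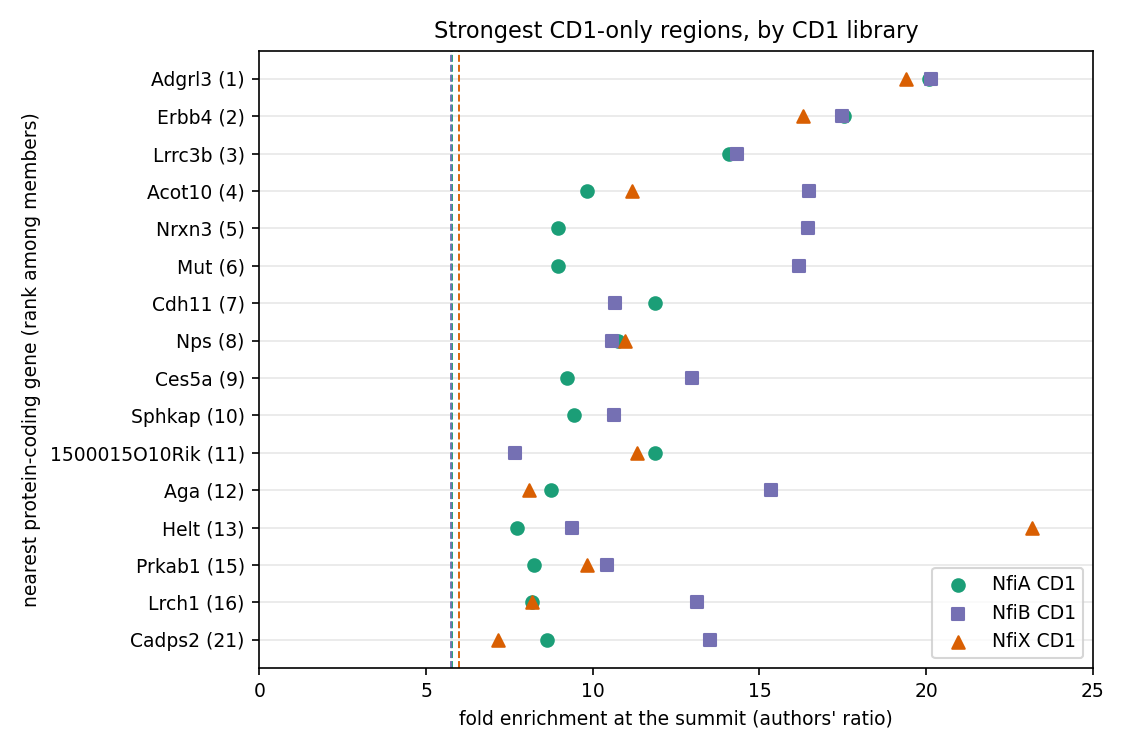
Fold enrichment at the summit (x axis, the authors' ratio) of the 16 CD1-only regions named for their strength (y axis, nearest protein-coding gene and rank among the 723). Each point is 1 CD1 library and dashed lines are the median folds of the 3 lists; every point lies above its list's median, and Adgrl3 and Erbb4 have 3 nearly equal values of 16.3 or more.

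Such regions were exceptions, since the typical CD1-only peak held few fragments and had a fold near or below the median of its list. The list median was passed by 28.0% of CD1-only regions in NfiA CD1, 48.6% in NfiB CD1 and 37.8% in NfiX CD1. In NfiA CD1 the median fold was 5.15 over 683 regions, against 5.97 for the other peaks of that list. In NfiB CD1 it was 5.70 over 716 regions against 5.77, and in NfiX CD1 it was 5.74 over 111 regions against 6.10. Shared regions, with at least 2 CD1 libraries and a Mixed peak, had median folds of 5.97, 8.56 and 6.11 in NfiA, NfiB and NfiX CD1. Their median summits held 23, 45 and 21 fragments. The gap to the other peaks of each list was clearer in fragments. A CD1-only summit held a median of 14 fragments against 22 in NfiA CD1, 20 against 28 in NfiB CD1 and 12 against 21 in NfiX CD1. Local background was lower too, at 1.82 against 2.85, 2.39 against 3.82 and 1.29 against 2.47 fragments in the same order. The background was at the lowest value of its list for 13.3%, 15.2% and 28.8% of CD1-only peaks and for 5.52%, 5.31% and 9.14% of the other peaks. Folds of 10 or more were reached by 6 CD1-only regions in NfiA CD1, 65 in NfiB CD1 and 6 in NfiX CD1, or 0.878%, 9.08% and 5.41% of them, against 10.8%, 16.5% and 11.02% of all peaks of the lists.

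At the edge of the rule lie 2 groups. Regions with at least 2 CD1 libraries and a peak of exactly 1 Mixed library numbered 1273, with median folds of 4.98, 5.97 and 5.59 and medians of 15, 24 and 13 fragments in NfiA, NfiB and NfiX CD1. Regions with 1 CD1 library and no Mixed peak numbered 8072, with median folds of 4.98, 4.35 and 5.39 and medians of 11, 18 and 10 fragments. In fragments the CD1-only regions lay between these groups in NfiA, NfiB and NfiX CD1. The CD1-only regions were 324 bp wide at the median, the Mixed-only ones 303 bp and the shared ones 497 bp. Within CD1-only regions held by 2 libraries the summits lay a median of 38 bp apart, and by 3 libraries 58 bp apart, against 32 and 41 bp in shared regions.

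When the 16314 regions with at least 2 CD1 libraries were ordered by strength, the mean percentile of fold in the lists that hold them, the share without a Mixed peak fell from 9.93% in the weakest decile (8.57 to 11.5) to 0.613% in the strongest (0.333 to 1.12). Every decile was below the one before. The mirror fell from 16.8% to 0.422%, though not at every step. Among the weakest CD1 decile 162 regions were CD1-only, and among the strongest 10 were.

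**Figure D2:**
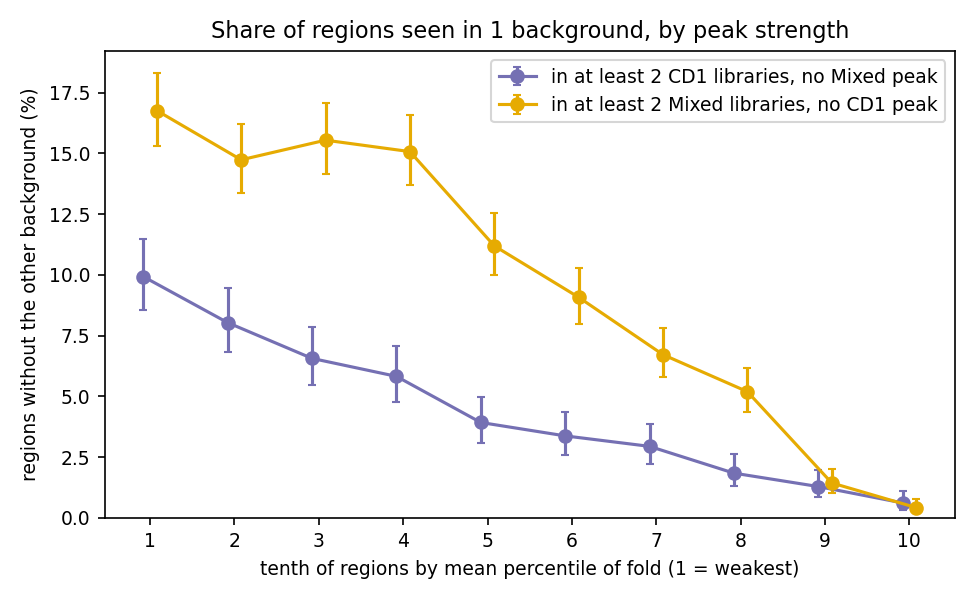
Share of regions with no peak of the other background (y axis, percent, bars are 95% Wilson intervals) by decile of peak strength (x axis, 1 weakest), for regions of at least 2 CD1 or at least 2 Mixed libraries. The CD1 share fell from 9.93% to 0.613% and the Mixed share from 16.8% to 0.422%.

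Some CD1-only regions lay beside a Mixed peak that missed the overlap. A Mixed peak lay within 100 bp of 8 CD1-only regions (1.11%), within 500 bp of 41 (5.67%), within 1 kb of 78 (10.8%) and within 10 kb of 295 (40.8%), and the median gap was 14.9 kb. In the mirror the shares were 0.703%, 3.86%, 6.72% and 34.9%, with a median of 18.3 kb. The mirror is measured to CD1 peaks, which are fewer (mean list length 20307 against 26089 in Mixed). The 2 sets of shares are therefore not like for like. The closest case was intronic in Kcnj3, an inward rectifier potassium channel gene, where 17 bp separated the region from a Mixed peak and the folds were 5.05 in NfiA CD1 and 4.71 in NfiB CD1. An intronic region of Gm21738 lay 106 bp from a Mixed peak and one at that gene's promoter 53 bp away. Their local backgrounds were 13.8 and 14.8 fragments in NfiA CD1, many times the median of 1.82, and their NfiA CD1 folds were 4.203 and 3.36. The part of that background in these calls was not tested.

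By position, 352 of the 723 were intergenic (48.7%, 45.1 to 52.3), against 43.0% of shared regions (42.2 to 43.7) and 40.7% of Mixed-only regions (38.7 to 42.7). Introns of protein-coding genes held 288 (39.8%, 36.3 to 43.4), against 41.8% and 43.2%. Introns of other genes held 43, noncoding and other exons 10, UTRs 6 and coding exons 5. Promoters, summits within 1 kb of a protein-coding start, held 19 (2.63%, 1.69 to 4.07), against 4.28% of shared regions (3.98 to 4.61), 4.70% of Mixed-only regions (3.90 to 5.65) and 8.48% of all merged regions. A start lay within 100 kb of 410 CD1-only regions (56.7%), and the median distance was 72.1 kb against 58.3 kb in shared and 50.9 kb in Mixed-only regions. The promoter interval of the CD1-only regions overlaps those of the shared and the Mixed-only regions, and without the NfiB Mixed library the promoter share was 4.32%. These are counts of regions from 1 set of libraries, with no replicate check and no test of a difference.

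**Figure D3:**
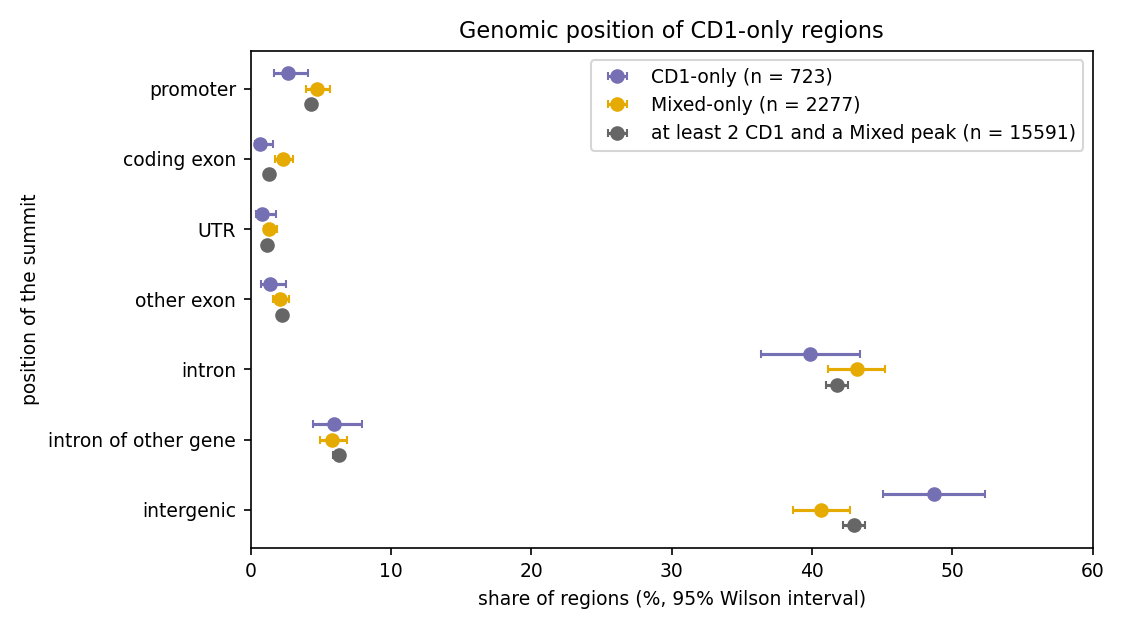
Share of regions (x axis, percent, bars are 95% Wilson intervals) by position of the summit (y axis) for CD1-only, Mixed-only and shared regions. CD1-only regions had the highest intergenic share, 48.7%, and the lowest promoter share, 2.63%.

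Strength moved with promoter position. Of the 19 CD1-only promoters, 15 were in the weakest decile, where they made up 9.26% of CD1-only regions, against 19.1% of the shared regions there. The strongest by percentile was at Stx6, a syntaxin gene, 0.408 kb downstream of its start (chr1:155191687-155192074), with folds of 5.95 in NfiA CD1 and 7.06 in NfiB CD1 and a Mixed peak 0.721 kb away. The promoter of Tbce, a tubulin folding cofactor gene, was the only one with all 3 CD1 libraries (chr13:14040281-14040589), at folds of 6.90, 5.84 and 5.63 in NfiA, NfiB and NfiX CD1. Its closest Mixed peak was 150 kb away. At Siglec15, a sialic acid-binding lectin gene, the NfiB CD1 fold was 8.14 and the NfiA CD1 fold 3.76. The promoter of Hspg2, the perlecan gene, had folds of 5.12 in NfiA CD1 and 3.801 in NfiB CD1, and that of Dlgap5, a mitotic spindle gene, 4.37 and 4.17. Mkrn3 and Krt73, whose upstream sequences are given above, had folds of 4.69 in NfiA CD1 and 4.15 in NfiB CD1, and of 4.99 in NfiB CD1 and 4.14 in NfiX CD1. The remaining named promoters, those of 1700067P10Rik, Galk2 and Zfp957, had folds of 4.03 to 5.81. Among the named promoters no fold was above the 8.14 of Siglec15.

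Across chromosomes the share of regions with at least 2 CD1 libraries that had no Mixed peak ranged from 3.08% on chromosome 10 (26 of 845) to 7.37% on chromosome 14 (54 of 733, 5.69 to 9.49). Chromosome 13 had 6.42% (48 of 748, 4.87 to 8.41), chromosome 17 6.39% (38 of 595, 4.69 to 8.64) and chromosome 8 5.39%. Of the placed chromosomes with such regions, the intervals of chromosomes 13, 14 and 17 lay above the genome share of 4.43%, and that of chromosome 6 below it (3.08%, 2.14 to 4.42). In the mirror these 3 chromosomes had 9.12%, 9.93% and 8.997%, near its genome share of 9.61%. The X chromosome had 3.45% (8 of 232). The intervals cover counting error only, treat regions as separate draws and were not adjusted for the number of chromosomes compared. A difference between chromosomes was not tested.

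**Figure D4:**
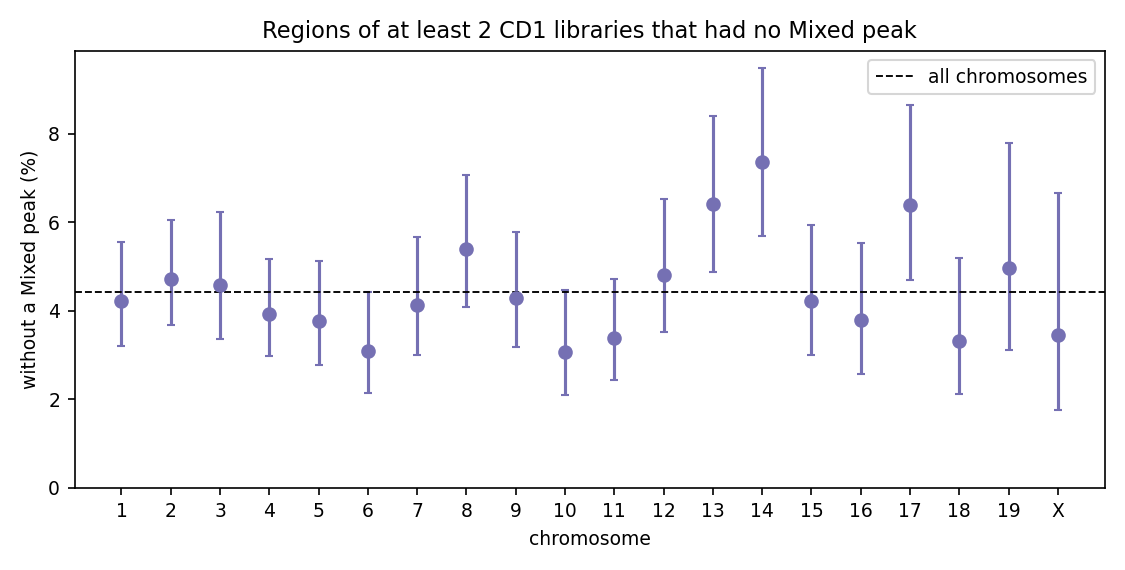
Share of regions with at least 2 CD1 libraries that had no Mixed peak (y axis, percent, bars are 95% Wilson intervals) by chromosome (x axis), with the genome share of 4.43% dashed. Chromosomes 13, 14 and 17 are highest, at 6.42%, 7.37% and 6.39%.

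Among regions of at least 2 CD1 libraries in genome order, 641 CD1-only regions had no CD1-only neighbour. There were 38 runs of 2 in succession and 2 runs of 3. CD1-only regions were 4.43% of those ordered, so standing alone does not set them apart. Grouping was not tested. The densest stretch was on chromosome 17, where 5 of the 9 regions with at least 2 CD1 libraries between 30458321 and 30877918 were CD1-only. It held 4 intronic regions of Btbd9, a gene for a BTB domain protein, and 1 upstream of Glp1r, the glucagon-like peptide 1 receptor gene. The CD1 lists had 9, 18 and 3 peaks of NfiA, NfiB and NfiX there, and the Mixed lists 3, 5 and 3. The stretch was picked for its CD1-only regions, which hold at least 2 CD1 peaks each and no Mixed peak. An excess of CD1 peaks was thus built in. The counts were not scaled to list length, which for NfiX was 7497 peaks in CD1 and 21443 in Mixed. Folds at the strongest Btbd9 region were 6.92 in NfiA CD1 and 11.2 in NfiB CD1 (chr17:30459629-30460049). The other 3 had NfiA CD1 folds of 3.46 to 3.65 and NfiB CD1 folds of 4.04 to 5.86. The median local background of the peaks in this stretch was 1.35 times the list median in NfiA CD1, 1.45 times in NfiB CD1 and 1.60 times in NfiX CD1, and 1.13, 1.35 and 1.20 times in the Mixed lists. The part of local background in these calls was not tested.

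A stretch of chromosome 8 in and beside Cdh11, a cadherin gene, held 4 CD1-only regions among 5 with at least 2 CD1 libraries (102705676 to 102978661). NfiA had 4 CD1 peaks and 1 Mixed peak there, NfiB 6 and 3, and NfiX 1 and 1. This stretch too was picked for its CD1-only regions, so more CD1 than Mixed peaks was built in. Local background was 0.5, 0.687 and 0.933 times the list median in NfiA, NfiB and NfiX CD1, and 0.625, 0.647 and 1.67 times in the Mixed lists. It was thus below the list median in all 3 CD1 lists, where at Btbd9 it was above. The intronic Cdh11 region had folds of 5.52 in NfiA CD1 and 8.10 in NfiB CD1. Within 100 kb, Peli2, a ubiquitin ligase gene, was nearest to 2 Mixed-only regions and Zmiz1, a transcriptional coactivator gene, to 0. Each was nearest to 3 CD1-only regions, out of 8 at Peli2 and 11 at Zmiz1 with at least 2 CD1 libraries. The Peli2 intron held the strongest NfiB CD1 value of the CD1-only ones, 12.1, with 6.64 in NfiA CD1 and 4.52 in NfiX CD1. At Zmiz1 an intronic region had 4.48, 9.88 and 5.39 in NfiA, NfiB and NfiX CD1. Dlx2, a homeobox gene of forebrain interneurons, was nearest to 2 regions with at least 2 CD1 libraries and both were CD1-only, with folds of 4.16 and 5.23 in NfiA CD1 and 6.99 and 5.46 in NfiB CD1. Introns of Alk, a receptor tyrosine kinase gene, of Lrp1b and of Nrxn3 held 3 each, out of 16, 11 and 21 regions with at least 2 CD1 libraries.

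The runs of 3 spanned 1316 kb on chromosome 14, with regions near Olfr31, Nek10 and Lrrc3b, and 707 kb on chromosome 15, with regions near Dnajc21, C1qtnf3 and Adamts12. Other stretches under 1 Mb held 4 CD1-only regions each. Near Klf6, a zinc finger factor gene, and Pitrm1 on chromosome 13 they were 4 of 8 regions with at least 2 CD1 libraries, and the same stretch held 4 Mixed-only regions. Of the CD1-only regions there, one nearest to Klf6 lay 86 bp from a Mixed peak and one nearest to Pitrm1 lay 85 bp from one. Near Saraf, Tnks and Ppp1r3b on chromosome 8 it was 4 of 11, with 0 Mixed-only regions. In that stretch NfiA had 11 CD1 and 10 Mixed peaks, NfiB 21 and 13, and NfiX 0 and 9. Near Plcl1 and Rftn2 on chromosome 1 it was 4 of 13, around Peli2 and Dlgap5 on chromosome 14 it was 4 of 15, and around Gsg1l and Kdm8 on chromosome 7 it was 4 of 22. In the Gsg1l stretch NfiA had 22 CD1 and 18 Mixed peaks, NfiB 44 and 30, and NfiX 9 and 21. Peak counts of these stretches were not scaled to list length either.

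Of 21910 protein-coding genes, 385 had a CD1-only region nearest to their start within 100 kb, or 1.76%. Of the genes with any region of at least 2 CD1 libraries, 7.43% had one that was CD1-only. None of 24 granule lineage transcription factors had one, although 17 had a region of at least 2 CD1 libraries. The Sonic hedgehog pathway, which drives progenitor division, had 0 of 15, and the cell cycle list 0 of 23, with 10 and 9 such genes. With so few genes per list and a share of 1.76% over all genes, counts of 0 do not set these lists apart. Of the marker genes of granule neuron progenitors 0 of 7 and of differentiating granule neurons 0 of 6 had one. Peak lists hold no expression, so these markers do not check the identity of the cells. Among markers of other cells, 1 of 6 for Bergmann glia and astrocytes had one, and none of 4 for the oligodendrocyte lineage, 3 for microglia and 2 for endothelium.

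In the NFI family, 1 of 4 genes had a CD1-only region. It lay in an intron of Nfib (chr4:82470280-82470491), with folds of 4.87 in NfiA CD1 and 5.35 in NfiB CD1 from 10 and 14 fragments. The Nfib gene body held 48 merged regions, 6 with all 6 libraries. Of the granule neuron maturation genes 1 of 13 had one, Map2, the gene of a dendritic microtubule protein, with folds of 5.27 in NfiA CD1 and 7.25 in NfiB CD1 and a Mixed peak 0.123 kb away. Of the migration genes it was 1 of 19, Cxcl12, a chemokine gene, with folds of 4.80 in NfiB CD1 and 5.49 in NfiX CD1. For these 3 lists the share among genes with a region of at least 2 CD1 libraries was 25%, 10% and 6.25%, each from a single gene.

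Lists of membrane and synaptic genes had a few more. In the cell adhesion list it was 4 of 30 genes (Cdh11, Tenm3, Tenm4 and L1cam), 14.8% of the 27 with a region of at least 2 CD1 libraries. Voltage-gated channel genes had 3 of 21 (Kcnma1, Kcnq3 and Cacna2d1), 15.8% of 19. Synaptic genes had 3 of 29 (Nrxn3, Snap25 and Grm7), 15.8% of 19, and axon guidance genes 3 of 33 (Sema3d, Sema6d and Robo2), 12.5% of 24. These shares are above the 7.43% of all genes, on 3 or 4 genes each, and were not adjusted for gene length. The mirror counts for the same lists were 4, 5, 8 and 9 genes, or 13.3%, 23.8%, 27.6% and 27.3% of the list genes, beside 5.95% of all genes. On that base the CD1-only shares were 13.3%, 14.3%, 10.3% and 9.09%, beside 1.76%. The lists thus had shares above that of all genes in both sets.

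Within 100 kb of a start, the strongest region of these lists was intronic in Kcnma1, a calcium-activated potassium channel gene (chr14:23856964-23857423), with folds of 5.70, 14.8 and 7.38 in NfiA, NfiB and NfiX CD1. The Kcnq3 intron, in a gene of the M-current channel, had 5.69, 10.1 and 5.16 (chr15:66282148-66282459). In both, NfiB was the highest of the 3 libraries. The intronic Nrxn3 region described above was stronger but lay 306 kb from the nearest start. The Tenm4 region, in a teneurin gene, had folds of 4.79 in NfiA CD1 and 7.22 in NfiB CD1, and a Mixed peak lay 0.349 kb away. The Sema3d region, 5.21 kb upstream of this guidance cue gene, had 5.48 and 8.53, with a Mixed peak 0.239 kb away. Snap25, a SNARE gene of vesicle release, had 6.38 in NfiA CD1 and 5.32 in NfiB CD1, and the intron of Sema6d 5.98 and 6.67. Slc1a3, the glutamate transporter gene of Bergmann glia and the one glial gene of 15 with a CD1-only region, had 6.19 and 5.12 from 11 fragments in each. Several named neighbours thus rested on 10 to 20 fragments per summit, and some lay within 1 kb of a Mixed peak.

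Families of many similar genes were counted in the same way. Olfactory receptor genes had 1 of 1133, Olfr31, at folds of 6.31 in NfiA CD1 and 4.94 in NfiB CD1. Vomeronasal receptor genes had 0 of 332, major histocompatibility genes 0 of 34, Skint genes 0 of 11 and ribosomal protein genes 0 of 102. Killer cell lectin-like receptor genes had 1 of 26, Klrg2, with folds of 4.61 in NfiA CD1 and 4.32 in NfiB CD1. Zinc finger genes of the Zfp series had 4 of 397, among them Zfp770 at 4.64 in NfiA CD1 and 5.54 in NfiB CD1 and Zfp385b at 5.15 and 4.69, and protocadherin genes had 1 of 68, Pcdh15, at 5.98 and 6.82. Among family members with a region of at least 2 CD1 libraries, the share with a CD1-only region was 6.25% of 16 olfactory, 8.51% of 47 Zfp, 9.09% of 11 protocadherin and 50% of 2 lectin-like receptor genes, beside 7.43% of all genes. The first 3 shares are near that of all genes, and the last is 1 gene. Only 2 vomeronasal and 0 histocompatibility genes had such a region.

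Which regions were CD1-only depended on list length, and their number depended on single libraries. With the 7497 peaks of highest fold from each list there were 872 CD1-only and 975 Mixed-only regions, a ratio of 1.12 against 3.15 with all peaks. Of the 723 regions, 82 (11.3%) were still CD1-only then, and they made up 9.40% of the 872. This setting keeps peaks by fold, so a strong CD1-only region stays in by construction: it kept 10 of the 10 strongest, 40 of the 50 strongest, 46 of the 64 regions in all 3 CD1 libraries and 36 of the 659 in exactly 2, which says nothing of how stable their absence from Mixed is. When −log10 q had to reach 5 in the CD1 lists alone, 391 remained (54.1%). Without the NfiB Mixed library there were 1668 CD1-only and 920 Mixed-only regions, so the order of the 2 sets turned. Without NfiA CD1 there were 104, and without NfiB CD1 72, since most regions needed both libraries.

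**Figure D5:**
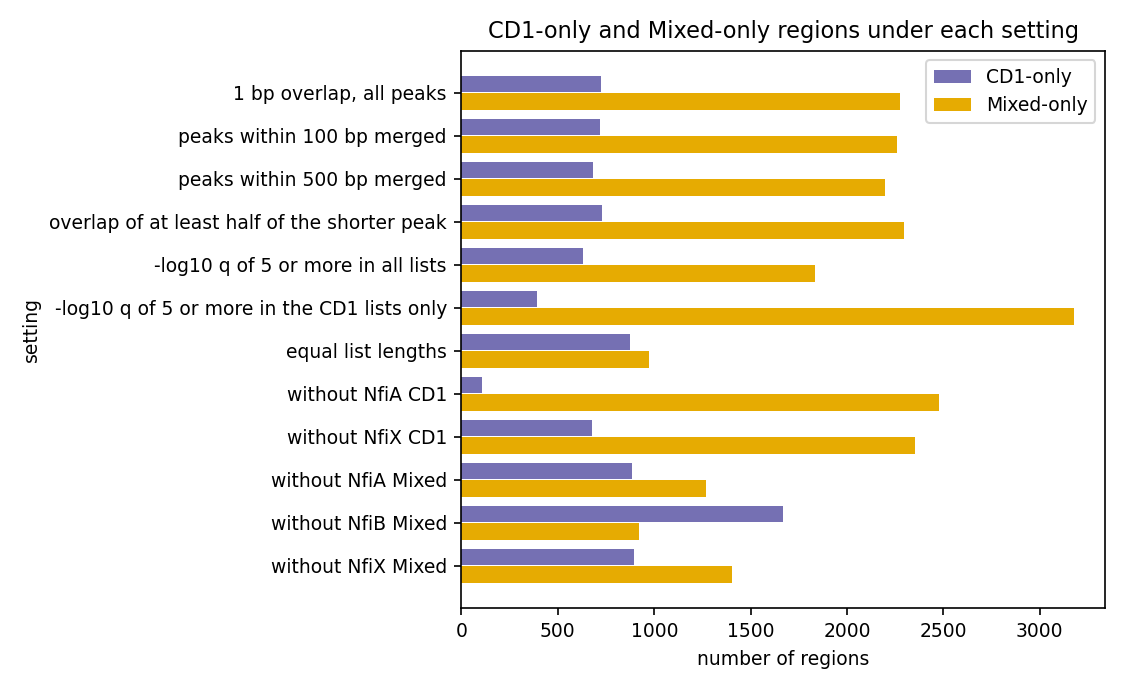
Number of CD1-only and Mixed-only regions (x axis) under each setting (y axis), 1 bar per set. The setting without NfiB CD1 (72 and 9137 regions) is not drawn for scale; Mixed-only regions were more numerous in the others drawn except without NfiB Mixed, and the sets were closest at equal list lengths, 872 and 975.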

How the data were processed

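Per the submitters' processing notes, Bowtie2 2.2.6, SAMtools 1.4.1, MACS2 2.1.0 and the build mm10 were used. Reads were single-end, per the labels' protocols. The controls, filters and thresholds of peak calling are not given in the sources used. Each library has its own deposited list, in which the authors give every peak a fold (a ratio) and −log10 p and q values. The deposited score column was not used.

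Fragments and background at a summit were found from fold, read with the constant in both of its terms, and p under a Poisson model. They were found within 0.002 on the −log10 p scale for 100% of peaks (0.2 to 1.1% of 1000 peaks per library after random shifts). The method was tested on simulated data. Regions were merged, and positions taken from GENCODE M21, with Python 3.11.15, pandas 2.3.3, numpy 2.4.6 and scipy 1.17.1. A gene is named as the nearest protein-coding start and is not a target. Intervals are 95% Wilson intervals, and 0 counts are given a limit of 3 counts. Named regions were the 10 strongest by mean percentile of fold, the 10 strongest in all 3 CD1 libraries, the 10 strongest promoters and up to 2 per gene list. Those near Kcnj3, Gm21738, Btbd9, Peli2, Zmiz1, Dlx2, Alk, Glp1r, the other stretches and runs and the printed windows were chosen after their values were seen. The regions and 19 gene lists were chosen with earlier results of these data known. Where a peak was not called, no value was imputed.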

Additional observations from a re-analysis of the deposited data

How the results depend on the processing

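Counts of CD1-only regions stayed between 629 and 731 when peaks within 100 or 500 bp were merged, when a larger overlap was required and with −log10 q of 5 or more in all lists, although that last setting, with 629 regions, held only 391 of the 723 (54.1%). They moved to 391 with that threshold in the CD1 lists only. With equal list lengths the Mixed-only count moved to 975, and the promoter share of CD1-only regions to 1.49%. That share was 7.47% with promoters taken as 5 kb and 5.53% with starts of any gene type. Leaving out 1 library at a time gave 72 to 1668 CD1-only regions, 920 to 9137 Mixed-only regions and promoter shares of 1.92 to 4.32%. The lowest CD1-only count and the highest Mixed-only count came without NfiB CD1, and the opposite ends without NfiB Mixed. NfiB was the factor with the longest lists. Beyond the fewer peaks or libraries each setting leaves, the cause was not tested. Without NfiA Mixed and without NfiX Mixed the Mixed-only counts were 1269 and 1404. The CD1 minus Mixed differences in list length and lowest background kept their sign without each factor. Libraries could be matched only by factor, as in the sign-flip test of depth. No paired analysis was possible by replicate, because the labels give no replicate numbers. With 1 library per group, no count has an error between replicates, and depth limits what the CD1-only regions, with 12 to 20 fragments at the median summit, can show.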
